A study of Mus musculus with 6 samples.

Results

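The MHC class II genes followed here are the 7 rows of the deposited gene table with the symbols H2-Aa, H2-Ab1, H2-Eb1, H2-DMa, H2-DMb1, Cd74 and Ciita, out of 17528 listed genes. They were chosen by name, and all 7 passed the filter on low values that left 14304 genes for testing. RNA came from CD11b+F4/80+ cells sorted from the femurs of BALB/c mice of genotype RAG2-/-γc-/-, a background without mature B, T and natural killer cells. The day 0 mice were non-engrafted. The day 4 and day 18 mice were taken 4 and 18 days after i.v. injection of Raji cells, a human Burkitt lymphoma B cell line that carries class II molecules of its own. There were 2 libraries for each of 3 groups. They are named A and B here, as in the table's columns, and values are given in that order. No group was kept ungrafted until day 4 or day 18, so the graft and the passage of time cannot be told apart. The labels give neither the age of the mice nor whether libraries came from single or pooled animals, so a p-value here weighs a difference against spread that could be purely technical.

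Class II molecules are pairs of an alpha and a beta chain that present peptides from endosomes to CD4+ T cells, and in marrow they mark monocytes, macrophages, dendritic cells and B cells that can present antigen. The H2-Aa and H2-Ab1 chains form I-A, and H2-Eb1 pairs with the H2-Ea chain to form I-E. The invariant chain, Cd74, escorts new class II molecules to the endosome and blocks their groove. H2-DMa and H2-DMb1 encode the 2 chains of H2-M, which releases the last fragment of Cd74 so that a peptide can bind. Ciita is a co-activator of the class II chain genes, the H2-M genes and Cd74. It does not bind DNA itself but docks on RFX, NF-Y and CREB proteins held at the X and Y boxes of class II promoters.

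The deposited values were RPKM over the whole gene span. They were turned back into reads per 1000000 reads (RPM), the level used below, which sums to 1000000 in each library. Estimated depth was 20073008 to 23214502 reads per library. The sorting marker Itgam (CD11b) stood at 1967 to 2247 RPM in the 6 libraries and Adgre1 (F4/80) at 32.8 to 63.7 RPM. Marker genes of neutrophils (8 genes, such as S100a9 and Ngp) summed to 101672 to 130495 RPM. The sorted cells therefore carried a large share of neutrophil-type RNA beside that of macrophages.

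All 7 genes rose between day 0 and day 18, by 2.23-fold (H2-DMb1) to 3.94-fold (Ciita). Over all tested genes 18.0% were called higher in this comparison and 17.3% lower (limma on log2(RPM + 0.1), Benjamini-Hochberg adjusted p under 0.05). With scaling by library totals alone, 70.7% of all calls were higher in place of 51.1%. The median log2 fold change of the 7 genes was 1.34, against 0.015 over all tested genes. Summed, the 7 genes made up 0.0827% and 0.0804% of the reads of the day 0 libraries. Their share was 0.0815% and 0.0794% at day 4, but 0.220% and 0.217% at day 18. The day 4 libraries overlapped those of day 0, and both day 18 libraries stood far above them.

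**Figure D1:**
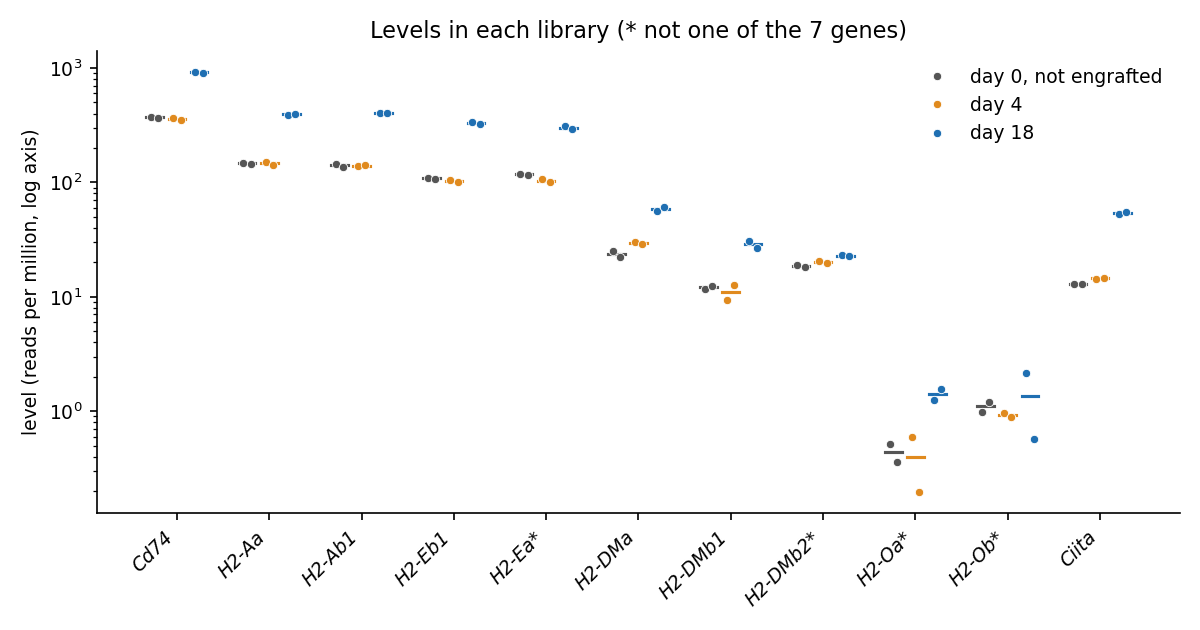
Level in RPM on a log axis of the 7 genes and of 4 other class II genes (starred) in each of the 6 libraries. Points are libraries and bars are group means. The day 18 points of the 7 genes lie above all day 0 and day 4 points, while those of H2-DMb2 lie close to them, at 22.5 and 23.0 against 18.3 to 20.4 RPM.

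Among the peptide-binding chains, H2-Ab1 (chr17:34257689-34269419 in mm10, plus strand), the I-A beta chain, was at 145 and 136 RPM in the day 0 libraries, 138 and 141 at day 4, then 404 and 401 at day 18. Its log2 fold change at day 18 against day 0 was 1.43 ± 0.0369 (SE, adjusted p = 2.22e-21). The day 4 values lie within the range of day 0, and both day 18 libraries are far above it. H2-Aa (chr17:34282744-34287823, minus strand), the I-A alpha chain, stood at 149 and 144 RPM, then 151 and 142, then 392 and 393. That is a rise of 1.34 ± 0.0364 on the log2 scale (adjusted p = 6.33e-21), again with day 0 and day 4 overlapping and day 18 apart. H2-Eb1 (chr17:34305867-34316674, plus strand), the I-E beta chain, went from 110.1 and 108 RPM at day 0, and 104 and 101 at day 4, to 339 and 327 at day 18. Its log2 fold change was 1.52 ± 0.0395 (adjusted p = 2.32e-21). In all 3 chains the 2 libraries of a day differed by far less than day 18 differed from the earlier days.

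The I-E alpha chain appears in the table as H2-Ea (chr17:34341959-34344645, minus strand) and is not one of the 7 genes. GENCODE lists it as a polymorphic pseudogene, because the reference strain C57BL/6J makes no I-E, whereas BALB/c mice do. It stood at 118 and 117 RPM at day 0, 106 and 101 at day 4, then 308 and 291 at day 18. Its rise at day 18 was 1.26 ± 0.0408 on the log2 scale (adjusted p = 3.31e-19), so both chains of I-E rose. Reads of BALB/c alleles were aligned to a C57BL/6J genome, and how many were lost was not tested.

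Ciita is known to act through an X box and a Y box in the promoters of class II genes. Matching by symbol to the RefSeq promoter table (GRCm38.p6, C57BL/6J, 250 bases before to 50 after a gene's start) found 4 of the 7 genes: H2-Aa, H2-Eb1, H2-DMa and H2-DMb1. H2-Ab1 and Ciita were not matched, and Cd74 was left out of the search. The stretches chr17:34287837-34287934 (minus strand) and chr17:34305746-34305842 (plus strand) are shown because they hold an X box core, GNAACT, followed by a Y box core, ATTGG. Both cores are in capitals.
H2-Aa promoter: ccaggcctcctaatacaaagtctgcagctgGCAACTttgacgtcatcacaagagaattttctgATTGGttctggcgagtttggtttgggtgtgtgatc
H2-Eb1 promoter: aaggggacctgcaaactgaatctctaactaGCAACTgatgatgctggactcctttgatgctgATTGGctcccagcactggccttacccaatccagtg
In H2-Aa 27 bases separate the 2 cores, and in H2-Eb1 26 bases. H2-DMb1 also holds the pair, 27 bases apart. Neither of the 2 windows listed for H2-DMa holds it. Among the other class II genes, H2-Eb2, which is not among the listed genes, holds it 26 bases apart. H2-Oa and H2-Ob hold ATTGG but no GNAACT. Of 32851 promoters in the table, 578 (1.76%) hold GNAACT followed by ATTGG with at most 40 bases between them, on either strand. Alone, ATTGG is found in 37.4% and GNAACT in 42.8%. The spelling of the cores was chosen after these promoters had been read, so the matches are a description.

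Cd74 had the highest level of the 7 genes. It stood at 373 and 368 RPM at day 0, 369 and 354 at day 4, then 927 and 906 at day 18. The rise at day 18 was 1.22 ± 0.0259 on the log2 scale (2.33-fold, adjusted p = 6.11e-23). Of 5 listed neighbours of Cd74 on its chromosome, 3 were called higher at day 18, beside 18.0% of all tested genes. These were Rps14, Tcof1 and Ndst1, with 0.19 to 0.39 on the log2 scale. The count of neighbours called higher was 1 on the RPKM scale and 1 with a single spread for all levels. Dctn4, the listed neighbour with the lowest change, had 0.03 ± 0.064 (adjusted p = 0.758). Within 250 kb of Cd74, 6 other tested genes had log2 fold changes of 0.08 to 1.14. The 2 highest, picked out after their values were seen and not on the list, were Arsi (1.14, adjusted p = 0.0866) and Camk2a (1.11, adjusted p = 0.0618), with mean levels of 0.897 and 1.06 RPM. Neither passed the test.

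The H2-M chains sit at lower levels. H2-DMa (chr17:34119541-34139101, plus strand) had 24.9 and 22.3 RPM at day 0, 30.4 and 29 at day 4, then 56.1 and 61.1 at day 18. Its log2 fold change at day 18 against day 0 was 1.22 ± 0.0818 (adjusted p = 1.72e-12). Its span overlaps that of Brd2, and its read numbers come out fractional in all 6 libraries. Brd2 itself had 0.00 ± 0.0303 at day 18 (adjusted p = 0.932). H2-DMb1 (chr17:34153072-34160230, plus strand) had 11.7 and 12.4 RPM at day 0, 9.41 and 12.6 at day 4, then 30.7 and 26.9 at day 18. The rise was 1.16 ± 0.130 on the log2 scale (adjusted p = 5.04e-08), and its 95% interval, 0.89 to 1.43, was the widest of the 7 genes.

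H2-DMb2 (chr17:34143307-34151555, plus strand), a near copy of H2-DMb1 that encodes an alternative beta chain of H2-M, did not pass the test. Its levels were 19.0 and 18.3 RPM at day 0, 20.4 and 19.6 at day 4, then 23.0 and 22.5 at day 18. The log2 fold change at day 18 was 0.20 ± 0.0992 (adjusted p = 0.122, 95% interval 0.00 to 0.41), but it passed under 3 of 18 alternatives. These were scaling by library totals alone (0.29, adjusted p = 0.0267) and the RPKM scale with either model of the spread (0.19, adjusted p = 0.0387 and 0.0450), the last of them chosen after seeing the data. Per kilobase of transcript, H2-DMb1 was at 0.625 and 0.690 of H2-DMb2 at day 0 and at 1.36 and 1.21 of it at day 18, so the order of the copies turned over. How reads common to the copies were assigned is not stated, and the read numbers of both are fractional in all libraries, so the split between them is uncertain.

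The promoter stretches of the 2 copies, aligned at ATTGG, share 84 of 98 letters (85.7%). The 30 bases around the X box core of H2-DMb1 (chr17:34153090-34153119, plus strand) and the bases at the same place in H2-DMb2 (chr17:34145119-34145148, plus strand) are shown because the core, in capitals, is found in H2-DMb1 alone.
H2-DMb1 site: ttacctaGTAACTgatgatgctaggctgat
H2-DMb2 site: ttacctattaaccgatgatgctaggctaag
Counted from 1 at the 5′ end, with the base of H2-DMb1 first, the 4 differences are G8T, T13C, G28A and T30G. G8T and T13C fall in the core. H2-DMb2 holds ATTGG but no GNAACT in its window, which says only that these letters are not there.

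The 2 chains of H2-O, an inhibitor of H2-M found mainly in B cells, were near the lower limit of measurement. H2-Oa had 0.517 and 0.358 RPM at day 0, 0.596 and 0.196 at day 4, then 1.25 and 1.55 at day 18, from 4 to 35 reads per library. It was called higher at day 18 (1.41 ± 0.542 on the log2 scale, adjusted p = 0.0440). That call was lost in 9 of the 17 alternatives that tested it, among them those without any 1 of the day 0 or day 18 libraries. Over the 17 its log2 fold change ran from 0.701 to 1.63. H2-Ob had 2.14 and 0.575 RPM in the day 18 libraries, on both sides of its day 0 values of 0.991 and 1.21.

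Ciita (chr16:10480059-10528418, plus strand), the co-activator, had the largest fold change of the 7 genes and the lowest level per length. Its libraries read 12.8 and 13 RPM at day 0, 14.3 and 14.7 at day 4, then 53.4 and 55.1 at day 18. The log2 fold change at day 18 against day 0 was 1.98 ± 0.0964 (adjusted p = 2.40e-15), and 210 of the 14304 tested genes (1.47%) had a larger rise. Its log2 fold change exceeded those of the other 6 genes by 0.45 (H2-Eb1) to 0.82 (H2-DMb1). Every pairing of a day 18 with a day 0 library gave the same sign for each of the 6. With 2 libraries against 2, the exact two-sided permutation p of each of these 6 differences was 0.333, the smallest it can be. The gene has several promoters used by different cell types, and a gene total cannot say which was in use.

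Ciita's span overlaps that of Dexi, a small gene of unsettled role, whose level went from 3.14 and 2.91 RPM at day 0 to 5.88 and 6.06 at day 18 (0.88 ± 0.219 on the log2 scale, adjusted p = 0.00226). Of 6 neighbours of Ciita, Dexi and Nubp1 were called higher, and Clec16a (-0.20) and Rmi2 (-0.37) lower. Over all tested genes 18.0% were called higher and 17.3% lower. The 2 lower calls were both lost on the RPKM scale, with a single spread, and without day 18 library B, and the count was 1 without either day 0 library. Socs1, which curbs interferon signalling, had -0.14 ± 0.202 (adjusted p = 0.645).

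**Figure D2:**
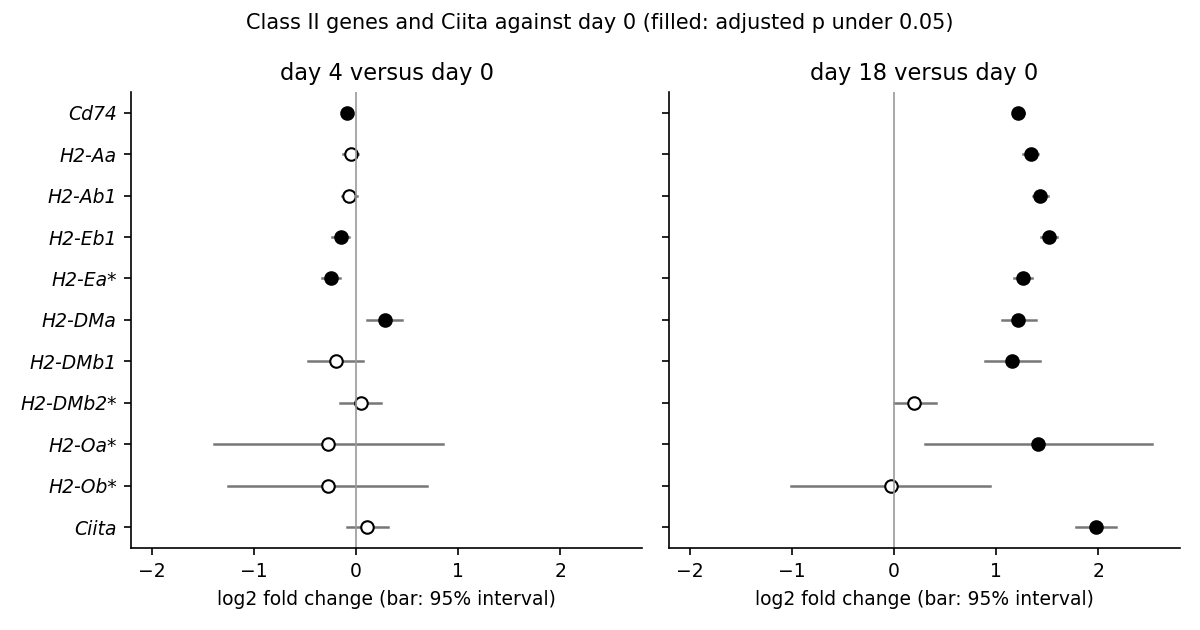
Log2 fold change with its 95% interval for the 7 genes and 4 other class II genes (starred) at day 4 and at day 18, both against day 0. Filled points passed an adjusted p of 0.05. At day 18 the 7 genes lie between 1.16 and 1.98, and at day 4 between -0.20 and 0.28.

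Levels of different genes were compared per kilobase of the longest principal transcript. At day 0 the order was Cd74 (263), H2-Aa (129.8), H2-Ab1 (116), H2-Eb1 (65.3), H2-DMa (14.2), H2-DMb1 (8.60) and Ciita (2.15 RPM per kilobase). At day 18 the order was the same, from 650.1 for Cd74 to 9.03 for Ciita, and no 2 neighbours in the order overlapped between libraries at either day. The place of the chains depends on the length used. Over the union of all annotated exons, H2-Aa fell to 38.5 RPM per kilobase at day 0, under H2-Ab1 (54.8) and H2-Eb1 (56.1), and H2-DMa (6.85) came to lie under H2-DMb1 (7.18). Cd74 was first and Ciita last on both scales.

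Ratios between the genes changed by different amounts. H2-Aa stood at 1.10 and 1.13 times H2-Ab1 per kilobase at day 0 and at 1.04 and 1.05 times at day 18. Cd74 was at 2.21 and 2.32 times H2-Ab1 at day 0 and at 1.97 and 1.94 times at day 18. Cd74 stood at 124 and 121 times Ciita at day 0, 110.2 and 103 times at day 4, then 74.0 and 70.1 times at day 18. The day 0 and day 18 ratios did not overlap in these 3 pairs.

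Most class II genes lie together on chromosome 17 among genes of other functions. Within 250 kb of H2-Ab1, 13 tested genes are not class II genes. Their log2 fold changes at day 18 ran from -0.44 to 0.48. Of the 13, 4 were called higher and 0 lower (0 also at an unadjusted p under 0.05). Over all tested genes 18.0% were called higher and 17.3% lower. The 5 H2 members in the same window had 1.16 to 1.52. The other class II genes there were H2-Oa (1.41), H2-Ea (1.26), H2-DMb2 (0.20) and H2-Ob (-0.03). Tap1 and Tap2, the subunits of the class I peptide transporter, lie between the H2-M and I-A genes. Tap1 had 0.14 ± 0.0588 (adjusted p = 0.0702) and Tap2 -0.02 ± 0.0407 (adjusted p = 0.780). The immunoproteasome subunit Psmb8 rose slightly, from 76.7 and 79.1 to 99.7 and 102 RPM (0.29 ± 0.0509, adjusted p = 4.99e-05), and its neighbour Psmb9 had 0.02 ± 0.0610 (adjusted p = 0.830). The other 3 called higher were Ring1 (0.48), Rxrb (0.26) and Slc39a7 (0.19).

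**Figure D3:**
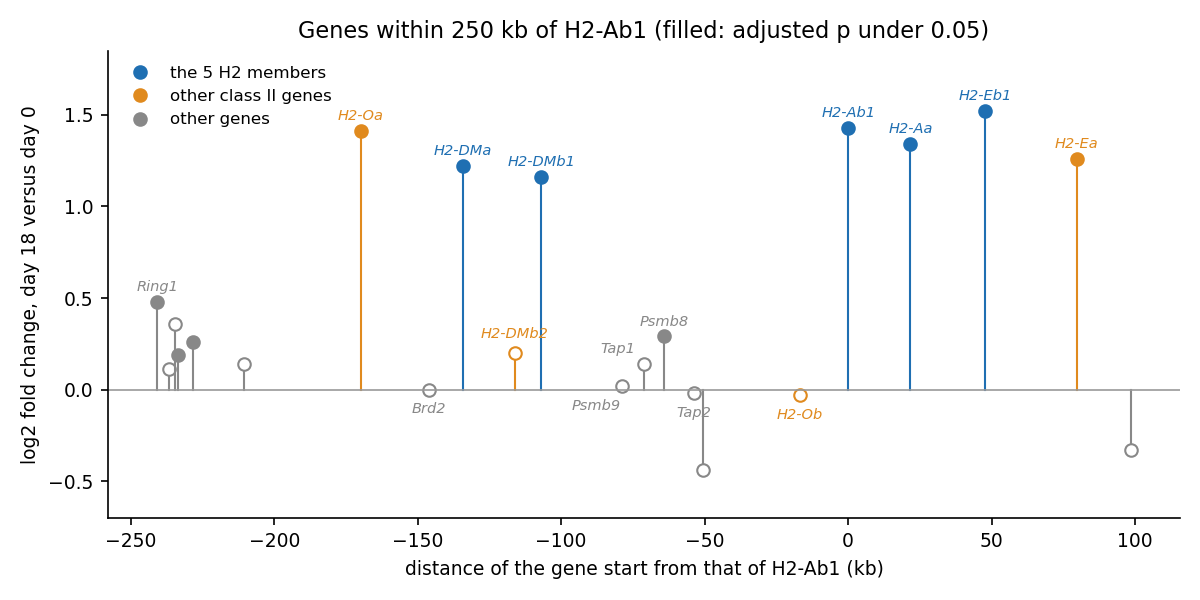
Log2 fold change at day 18 against day 0 by distance in kb between the midpoint of a gene and that of H2-Ab1. Every tested gene within 250 kb is shown. The axis label names gene starts, but midpoints were used. Filled points passed an adjusted p of 0.05. The 5 H2 members, H2-Oa and H2-Ea stand above 1. All 13 genes that are not class II lie under 0.5, as do the class II genes H2-DMb2 (0.20) and H2-Ob (-0.03).

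At day 4 the 7 genes were near their day 0 levels. H2-DMa was called higher (0.28 ± 0.0818 on the log2 scale, adjusted p = 0.0239). H2-Eb1 was called lower (-0.15 ± 0.0395, adjusted p = 0.0136), as was Cd74 (-0.09 ± 0.0259, adjusted p = 0.02). Over all tested genes 5.48% were called higher at day 4 and 6.66% lower. With scaling by library totals alone, 73.2% of all calls were higher in place of 45.2%. H2-Ea was also called lower (-0.24 ± 0.0408, adjusted p = 0.000131).

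The H2-Ea call held in 16 of 18 alternatives, and was lost on the RPKM scale and with a single spread. The 3 calls among the 7 genes were small and not stable. The libraries of Cd74 overlapped before scaling (373 and 368 against 369 and 354 RPM). The count of called members was 1 with library totals alone, and 0 on the RPKM scale, with a single spread, or with the 4 day 0 and day 4 libraries alone. It was 1 without day 0 library A, 0 without day 0 library B, and 1 without day 4 library B. The remaining 4 genes did not pass. Ciita had 0.11 ± 0.0964 (adjusted p = 0.531, 95% interval -0.09 to 0.31), H2-Aa -0.05 ± 0.0364, H2-Ab1 -0.07 ± 0.0369 and H2-DMb1 -0.20 ± 0.130.

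Between day 4 and day 18 all 7 genes were called higher again. Over all tested genes 14.0% were called higher in that comparison and 12.1% lower. Ciita again had the largest log2 fold change, 1.87 ± 0.0964. The chains had 1.39 ± 0.0364 (H2-Aa), 1.5 ± 0.0369 (H2-Ab1) and 1.67 ± 0.0395 (H2-Eb1), and Cd74 had 1.31 ± 0.0259. H2-DMa, which was already called higher at day 4, had the smallest change, 0.95 ± 0.0818, and its partner H2-DMb1 had 1.36 ± 0.130. This comparison shares the day 18 libraries with the one against day 0, so the 2 are not independent. H2-DMb2 again did not pass (0.15 ± 0.0992, adjusted p = 0.295).

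The factors that hold Ciita on class II promoters had changes of -0.32 to 0.28 on the log2 scale at day 18. Of 7 genes, limma called 0 higher at day 18 against day 0 (1 at an unadjusted p under 0.05) and 3 lower: Nfyb (-0.32 ± 0.0578, adjusted p = 5.61e-05) and Nfya (-0.12 ± 0.0426, adjusted p = 0.0347), subunits of NF-Y, and Creb1 (-0.13 ± 0.0486, adjusted p = 0.0442). The median of the list was -0.12, and over all tested genes 18.0% were called higher and 17.3% lower. Nfyb was at 76.6 and 74.7 RPM at day 0 and 65.5 and 62.7 at day 18. Rfx5, the DNA-binding subunit of RFX, had 17.7 and 17.7 RPM at day 0 and 25.6 and 20.1 at day 18 (0.28 ± 0.110, adjusted p = 0.0520), so both day 18 libraries lay above day 0. The lower count was 1 with library totals alone, on the RPKM scale, with a single spread, and without any 1 of the day 0 or day 18 libraries. Under 4 of the alternatives 1 gene of the list was called higher.

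Of 10 genes on the interferon gamma route or known to act on Ciita, 7 were called higher at day 18 and 1 lower, with a median of 0.27. Irf8, a regulator of monocyte and dendritic cell development, had 35.3 and 32.1 RPM at day 0, 48.5 and 50 at day 4, then 77.2 and 75.1 at day 18 (1.09 ± 0.0673, adjusted p = 3.30e-13). Its 3 pairs of libraries did not overlap. The receptor chain Ifngr1 went from 138 and 132 RPM to 197 and 184, then 229 and 225 (0.67 ± 0.0392 at day 18, adjusted p = 1.23e-13). Irf1, the interferon-induced factor that acts on one of the Ciita promoters, rose less, from 60.5 and 61.5 to 84.7 and 79.1 RPM (0.34 ± 0.0590, adjusted p = 3.81e-05). Ifngr2, Jak2, Usf1 and Spi1 rose by 0.08 to 0.38. The lower one was the kinase Jak1 (-0.14 ± 0.0292, adjusted p = 0.00025), a call that did not hold with library totals alone or with a single spread. With a single spread the higher count was 4 in place of 7. At day 4 the list had 3 genes called higher and 1 lower, the promoter factors 0 (1 lower at an unadjusted p under 0.05) and the processing genes below 2 higher and 1 lower, and with a single spread all of these were 0.

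The enzymes that prepare class II peptides and trim Cd74 were mostly higher at day 18 too. Of 11 genes for processing and turnover, 10 were called higher at day 18 and 0 lower (1 at an unadjusted p under 0.05), with a median of 0.45, and the higher count was 9 or 10 in all 18 alternatives. Ctss, the protease that makes the last cuts in Cd74, had 102 and 95.4 RPM at day 0, 152 and 152 at day 4, then 342 and 352 at day 18 (1.73 ± 0.0395, adjusted p = 2.95e-22). It was called higher at day 4 as well, by 0.57 ± 0.0395 (adjusted p = 5.56e-11). Ifi30, the lysosomal thiol reductase that opens disulfide bonds of antigens, had 32.2 and 35.1, then 38.2 and 35.1, then 143 and 137 RPM (1.97 ± 0.0659, adjusted p = 7.18e-19). Lgmn, an asparaginyl endopeptidase, had 28.1 and 26.0, then 27.5 and 27.6, then 104 and 106 RPM (1.87 ± 0.0709, adjusted p = 1.03e-17). Ctsl rose by 1.74 ± 0.130, and Ctsb, Ctsd, Ctsh, Sppl2a and Cst3 by 0.20 to 0.52. The courses differed: the protease Ctsd was called lower at day 4 (-0.22 ± 0.0283, adjusted p = 2.43e-06). The protease inhibitor Cst3 was called higher at day 4 (0.25 ± 0.0297, adjusted p = 1.11e-06) and did not pass between day 4 and day 18 (-0.05 ± 0.0297, adjusted p = 0.271). Marchf1, a ligase that sends class II molecules to degradation, rose by 0.45 ± 0.0626, and the related Marchf8 did not pass (-0.16 ± 0.0696, adjusted p = 0.0720).

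**Figure D4:**
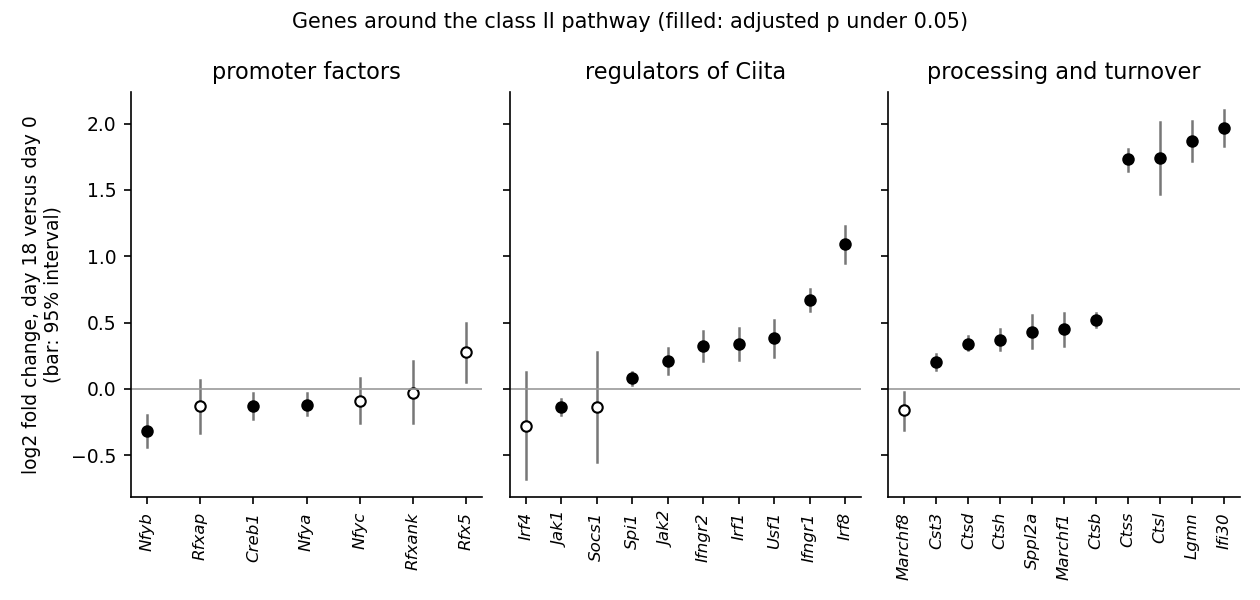
Log2 fold change at day 18 against day 0, with 95% intervals, for class II promoter factors, regulators of Ciita and genes of class II processing and turnover. Filled points passed an adjusted p of 0.05. Ifi30, Lgmn, Ctsl and Ctss stand at 1.73 to 1.97, and no promoter factor stands above 0.28.

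Genes with the most similar course were found by the distance between log2 levels, relative to day 0, over the 6 libraries. Nearest to the mean of the 6 genes other than Ciita, among 8910 genes, were Pea15a (distance 0.135), Pde4b (0.162), Il4ra (0.186), Nfkb2 (0.197) and Acp2 (0.221), against a median of 1.92. Pea15a, a death effector domain protein, had 17.4 and 18.0 RPM at day 0, 16.8 and 17.7 at day 4, then 44.6 and 44.9 at day 18. Il4ra, the interleukin 4 receptor alpha chain, had 29.7 and 28.6, then 32.8 and 28.8, then 77.8 and 77.6 RPM. Nearest to Ciita, among 12421 genes, were Relb (0.117), Ifi30 (0.171), Galnt6 (0.232), Lgmn (0.267) and Cd302 (0.312), against a median of 2.82. Relb, the NF-kB subunit that pairs with the product of Nfkb2, had 9.61 and 9.93, then 10.9 and 11.2, then 40.7 and 38.6 RPM. As the measure picks for, these 10 genes had log2 fold changes of -0.09 to 0.14 at day 4 and of 1.22 to 2.09 at day 18. Among the 7 genes themselves the nearest pair was H2-Aa and H2-Ab1 (distance 0.158), and Ciita was 0.747 to 1.28 from each of the others.

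Several cell types of marrow carry class II molecules, and their markers were read beside the class II genes. In such a mixed sort, more cells of a type and more RNA per cell cannot be told apart. Of 6 classical monocyte markers 5 were called higher at day 18 and 1 lower, and their summed level ran from 1485 to 1512 RPM at day 0, 1756 to 1768 at day 4, then 2710.0 to 2746 at day 18. Their share in the class II rise was not tested. H2-Ab1 stood at 1.39 and 1.36 times F13a1 at day 0, 0.974 and 0.979 times at day 4, then 1.43 and 1.42 times at day 18. Against Ccr2, the chemokine receptor of classical monocytes, the ratios were 0.752 and 0.726, then 0.474 and 0.503, then 0.832 and 0.825. Against Csf1r, the receptor for macrophage colony-stimulating factor, they were 0.958 and 0.865, then 0.650 and 0.675, then 0.979 and 0.929. Relative to these 3 genes H2-Ab1 was lower at day 4 than at either other day. At day 18 its ratio was above that of day 0 for F13a1 and Ccr2 and overlapped it for Csf1r. Of the other classical monocyte markers, Ms4a4c rose more than H2-Ab1 at day 18 (1.56 against 1.43 on the log2 scale) and Plac8 less (0.72). Against Fn1 the ratio of H2-Ab1 was 0.419 and 0.379 at day 0 and barely higher, 0.420 and 0.422, at day 18. Against Ly6c2 the ratio went from 0.215 and 0.212 at day 0 to 0.634 and 0.638 at day 18. It also rose against Adgre1, from 4.24 and 4.16 to 6.44 and 6.29, and against Cd68, from 4.31 and 3.65 to 5.03 and 5.08. The ratio fell against Lgmn, from 5.15 and 5.25 to 3.87 and 3.79, and against Itgax, from 9.9 and 8.84 to 6.81 and 6.62. Against Ifi30 and Ctss it was lower at day 18 as well.

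Other marker lists gave a mixed picture. For these and the lists below, the shares over all tested genes at day 18 were 18.0% higher and 17.3% lower. Of 12 resident macrophage markers 7 were called higher at day 18 and 4 lower, with sums of 759 to 761 RPM at day 0 and 808 to 824 at day 18. At day 4, 1 was called higher and 8 lower. Of 7 non-classical monocyte markers 6 were called higher at day 18 and 1 lower, and the sum went from 624 RPM in both day 0 libraries to 827 and 842 RPM. Their part in the class II rise was not tested. Of 8 neutrophil markers 1 was called higher and 6 lower, and the sum went from 130127 and 130495 to 101672 and 102515 RPM. The higher one was Retnlg, with 582 and 556 RPM at day 0 and 714 and 705 at day 18. The lower calls of S100a8, Camp and Mmp8 did not hold under every alternative. When the 20 most abundant genes were left out of the fit, the lower count was 1. S100a8, S100a9, Ltf, Ngp and Camp were among those 20, so they could not be called there. With those 20 left out, all 7 class II genes were still called higher.

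Dendritic cell markers did not move as 1 group. Of 9 tested, 1 was called higher at day 18 (2 under 9 of the 18 alternatives) and 2 lower, and their sum went from 42.9 and 45 RPM at day 0 to 88.1 and 88.5. Itgax (CD11c), shared by dendritic cells and activated monocytes, made up most of that change. It had 14.6 and 15.4 RPM at day 0, 16.0 and 13.3 at day 4, then 59.3 and 60.6 at day 18 (1.90 ± 0.0989, adjusted p = 9.18e-15). The lower ones were Cd209a (-1.16 ± 0.169) and Clec9a (-1.05 ± 0.364). Xcr1 was at 0.0862 and 0 RPM at day 0, 0.596 and 0.589 at day 4, then 0.199 and 0.575 at day 18, from at most 13 reads. It was called higher at day 4 (2.33 ± 0.749, adjusted p = 0.041), a call lost in 11 of 17 alternatives. At day 18 against day 0, Xcr1, Zbtb46 and Flt3 did not pass. Among B cell genes, Cd79a was at 0.0498 and 0.265 RPM at day 18 against 0.129 and 0.447 at day 0, and Cd79b at 7.17 and 6.68 against 4.82 and 5.05 (adjusted p = 0.0980). Reads of human origin were not analysed here. Of 4 plasmacytoid dendritic cell markers 1 was called higher and 1 lower, of 2 B cell markers 0 (1 higher at an unadjusted p under 0.05), and the 1 tested marker of T and innate lymphoid cells, Cd4, did not pass. The endothelial genes Kdr (0.732 and 0.760 RPM at day 0, 9.12 and 8.23 at day 18) and Pecam1 were both called higher. The part of any of these cells in the class II rise was not tested.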

How the data were processed

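RNA-seq of 6 libraries was analysed. Per the submitters' processing notes reads were aligned to mm10 with STAR 2.5.3a. For the counting tool and the annotation, nothing is stated in the sources used here. The authors deposited RPKM values per gene, which divide by the whole gene span, introns included; levels were multiplied back to RPM. Depth was estimated from the steps of low values. Per library 75.4% to 76.9% of values came out as whole reads (within 0.05 reads), too few for a count test. Precision rests on 2 libraries per group.

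Genes with at least 0.453 RPM (10 reads at the median depth) in 2 libraries and 15 reads in all were kept. RPM values were scaled by trimmed means (factors 0.967 to 1.03), and log2(RPM + 0.1) was tested with limma 3.58.1 (R 4.3.3; trend, robust) with all 6 libraries in 1 model; fold changes are on this scale and understate those of low genes. Calls are at an adjusted p of 0.05. The test was tried on data simulated from day 0 means with 1 setting of the spread for all genes. That is simpler than these data, so it does not show how well the test did here. GENCODE M21 gave transcripts and RefSeq the promoters; neighbours and distances use the spans of the deposited table. The letters A and B are not in the labels and do not pair libraries.

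The 7 genes, the lists and the tests were chosen with earlier results of these data known. Some genes of the lists are not reported here. Named genes are the 7, those of the lists of other class II genes, promoter factors, regulators, processing and neighbours, markers of the cell types, and the 5 genes nearest in course to the 6 genes other than Ciita and to Ciita. Alternatives changed the scaling, scale, pseudocount (0.01 and 1), filter, spread model, samples and a replicate block. Python 3.11.15, pandas 2.3.3, numpy 2.4.6 and matplotlib 3.10.9 were used.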

Additional observations from a re-analysis of the deposited data

How the results depend on the processing

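All 7 genes were called higher at day 18, against day 0 and against day 4, under each of the 18 alternatives, with log2 fold changes of 1.07 to 2.06 and of 0.886 to 1.90. With the column letter as a replicate block the counts of called members were 7, 7 and, at day 4, 3, and the block changed no call of the 7 genes. The letters showed no pairing: deviations of same-lettered libraries had correlations of -0.0419 to 0.0018. The 3 calls at day 4 became 1 with library totals alone. They became 0 on the RPKM scale, with 1 spread for all levels, with the 4 compared libraries alone, and on the RPKM scale with the spread following the RPM level, which was added after seeing the data. Leaving out 1 library gave 0 to 3. At day 4 H2-Aa had -0.05 in the main test and 0.00126 with library totals alone. That alternative leaves out the scaling factors, which were 0.97 and 0.967 at day 0 and 1.01 and 1 at day 4. H2-DMb1 ran from -0.413 without day 4 library B to 0.0145 without day 4 library A, the library in which it was lowest. Over all genes the 1736 calls at day 4 became 95 on the RPKM scale, 0 with 1 spread (3473 genes had an unadjusted p under 0.05 in the main test), 995 without day 0 library A, 915 without day 0 library B and 748 with the added alternative. The 5048 calls at day 18 against day 0 became 2646 with 1 spread, and the 3726 against day 4 became 2130 on the RPKM scale and 1352 with 1 spread. The planned trend over the RPM level is the main test itself on this scale. Only genes with at least 0.453 RPM in 2 or more libraries, and 15 reads in all, were tested.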
